A study of Persea americana and Macadamia integrifolia and Mangifera indica with 6 samples.

Results

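Juvenile leaves of 3 tree crops were set side by side through their miRNAs. The values came from the juvenile small RNA libraries of avocado, macadamia and mango, which were 3 of the 6 libraries of the study, and the libraries from mature trees were left out. The study sequenced small RNA from leaves of juvenile and mature trees to follow the change of vegetative phase. Each juvenile library held the newly emerged, fully expanded leaf of unbranched seedlings aged 1 month, from the cultivar Hass for avocado (Persea americana), HAES741 for macadamia (Macadamia integrifolia) and Kensington Pride for mango (Mangifera indica). Avocado seedlings came from a nursery, and macadamia and mango seedlings were raised in a glasshouse. Leaves of several seedlings were pooled, and the labels do not say which pool was sequenced. There was 1 library per species, so species, growing place and library cannot be told apart, no test between species was possible, and all intervals below cover counting error only.

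Plant miRNAs are short RNAs cut from hairpin transcripts by Dicer-like 1 and loaded onto Argonaute 1, which then finds and cuts messenger RNAs with a nearly complementary site. Many families are old and are shared by flowering plants, and the members of a family often differ by a base or a few. In leaves they hold down transcription factors of phase change, auxin response and leaf growth, and some of them respond to sulphate, phosphate or copper. Avocado is a magnoliid, whereas macadamia and mango are eudicots of different orders.

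For 6 of the families the study designed a forward primer with the letters of the mature strand. They are shown with the seed, bases 2 to 8 from the 5′ end and the part that leads target pairing, in capitals. The primer list names families and not members, so none of them was matched to a single entry of the table, and T stands for U.
miR156: tGACAGAAgagagtgagcac
miR172: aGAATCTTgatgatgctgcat
miR159: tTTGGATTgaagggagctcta
miR164: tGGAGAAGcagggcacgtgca
miR394: tTGGCATTctgtccacctcc
miR396: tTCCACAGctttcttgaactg
The 6 sequences had 6 different seeds, so none of these families shared a seed with another.

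The table gave 123 reference entries, 50 of Arabidopsis and 73 of rice, in RPM, the number of reads per 1000000 reads of 20 to 24 nt. Entries of a family with the same value in every library were counted once, which left 53 sequence profiles in 20 families. Of these profiles 32 stood for a single entry, and the largest stood for 16. A profile is called here by 1 of its entries. A family value was the sum of its profiles on 1 arm of the hairpin and of those whose names give no arm. The arm was the one with the larger RPM total over the juvenile libraries together. A value of 0 means that no reads were assigned to the listed Arabidopsis and rice sequences, and says nothing of a tree's own variant that differs from them. The table holds only miRNAs, so the leaf label could not be checked against marker genes.

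The RPM values stepped in whole reads, which gave depths of 4606100 reads for juvenile avocado, 7216756 for macadamia and 1141472 for mango. These are the smallest depths that fit the steps. A whole multiple of them would fit too, and read counts would then be higher, floors lower and intervals narrower. All reads and intervals given here rest on the smallest depths. A floor of 3 reads stood at 0.651 RPM in avocado, 0.416 RPM in macadamia and 2.63 RPM in mango, so the mango library was the shallowest and its low values were the least certain. The listed miRNAs took 11.9% of the reads in avocado (exact Clopper-Pearson 95% interval 11.8 to 11.9), 7.55% in macadamia (7.53 to 7.57) and 7.77% in mango (7.72 to 7.81).

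The same pair of families led each library, miR396, which holds down the growth-regulating factors of leaf cell division, and miR159, which holds down GAMYB-like transcription factors. miR396 took 28.1% of the listed reads in juvenile avocado and 43.0% in mango, and ranked first in both, although miR159 had the more abundant single profile there. In macadamia miR159 ranked first with 55.3% of the listed reads. Together both families made up 52.3% of the listed reads in avocado, 76.7% in macadamia and 84.0% in mango. Avocado was the most even of the 3 libraries, and its 5 most abundant families held 79.5% of the listed reads against 89.3% in macadamia and 95.7% in mango. The family in the third place was a different one in each species, miR395 in avocado, miR157 in macadamia and miR167 in mango. Among single profiles the first place did not change, and miR159a took 23.99% of the listed reads in avocado, 55.0% in macadamia and 40.6% in mango.

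**Figure D1:**
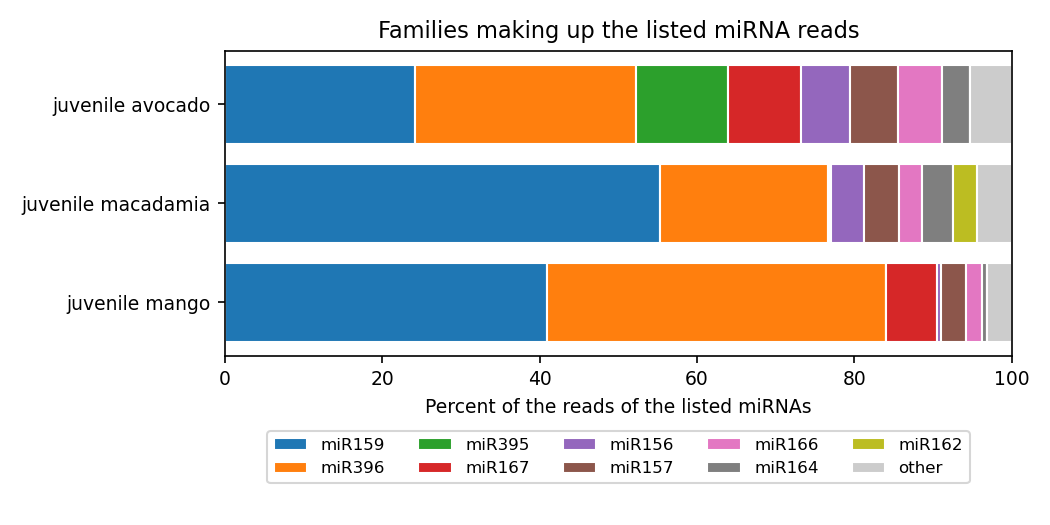
Share of the listed miRNA reads (x axis, percent) taken by each family in the juvenile libraries of avocado, macadamia and mango, 1 bar per library; "other" holds the remaining families and the less abundant arms. miR159 and miR396 together fill 52.3%, 76.7% and 84.0% of the bars, and the miR395 block is visible only in avocado.

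Reads of all 20 families were found in macadamia, of 18 in mango and of 17 in avocado. miR319, miR399 and miR408 had no reads in avocado, and miR162 and miR399 had none in mango. In avocado 11 families stood at 1000 RPM or more, against 8 in macadamia and 5 in mango. Of all 20 families, 10 were highest in avocado, 6 in macadamia and 4 in mango. There were 13 families at 10 RPM or more in all 3 libraries, and among these miR398 and miR159 alone stayed within 2-fold between every pair on the deposited scale.

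Families at 10 RPM or more in 1 or both libraries of a pair were compared by their ratio on the log2(RPM + 1) scale, and a 2-fold difference was counted. Of 18 families compared between macadamia and avocado, 14 (77.8%) differed, 4 (22.2%) being higher in macadamia and 10 (55.6%) lower. Of 16 families compared between mango and avocado, 13 (81.2%) differed, 3 (18.8%) being higher in mango and 10 (62.5%) lower. Of 18 families compared between mango and macadamia, 9 (50%) differed, 3 (16.7%) being higher in mango and 6 (33.3%) lower. On the deposited scale avocado thus stood above each other library, taken alone, in more families than it stood below. A ratio between bulk samples cannot tell fewer cells making a miRNA from less of it per cell.

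These counts leaned on the scale. The median log2 ratio over all families compared was -1.07 for macadamia over avocado, -1.53 for mango over avocado and -0.45 for mango over macadamia. With the 3 libraries brought to the same total of listed reads, the counts higher and lower became 5 and 5 for macadamia over avocado, 3 and 7 for mango over avocado and 3 and 6 for mango over macadamia. With each median set to 0 they became 6 and 5, 6 and 4, and 4 and 5. Differences of 10-fold or more were found for 5 families between macadamia and avocado, 5 between mango and avocado and 4 between mango and macadamia, and are larger than these shifts. Folds below are plain RPM ratios on the deposited scale.

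**Figure D2:**
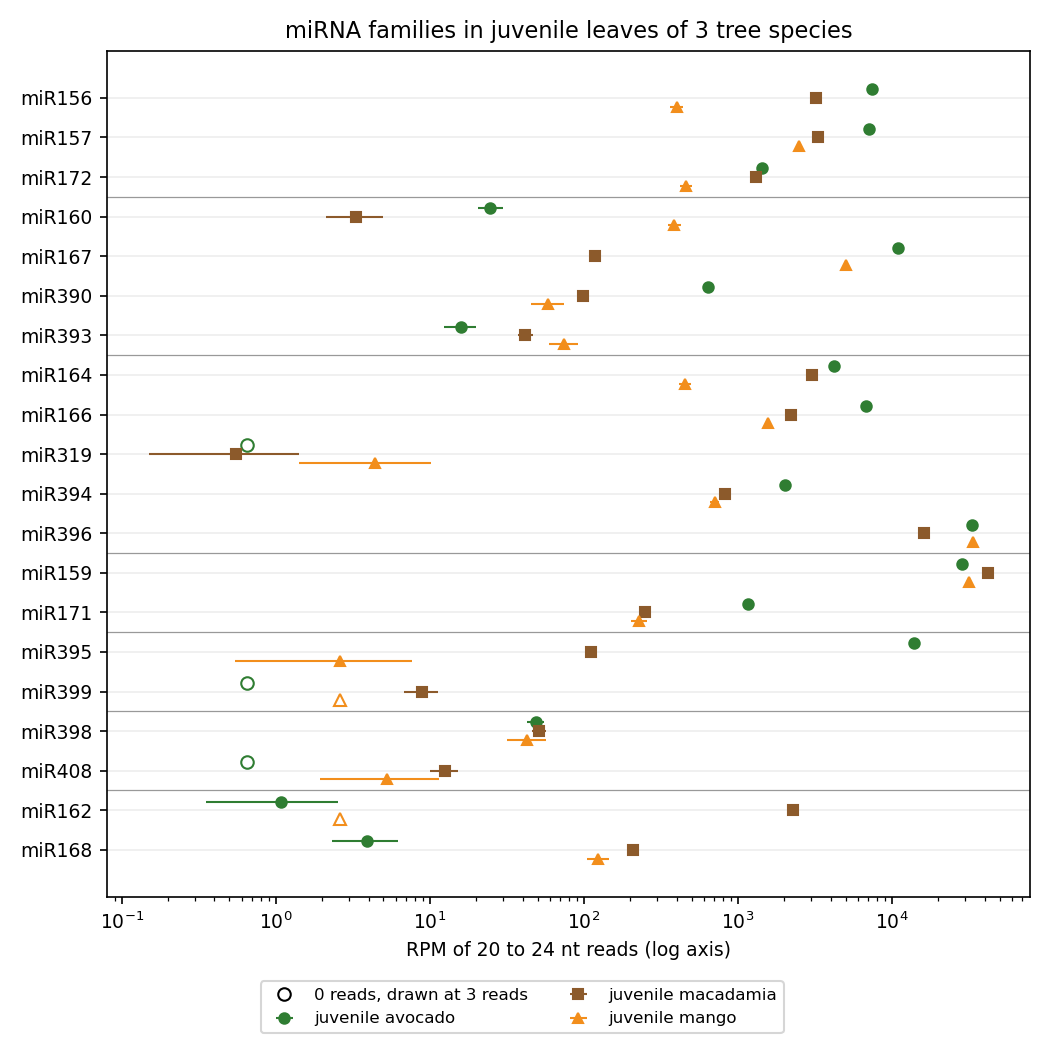
Level of each family (x axis, RPM, log scale) in juvenile avocado (circles), macadamia (squares) and mango (triangles); bars are exact 95% counting intervals, open symbols stand for 0 reads and are drawn at 3 reads, and lines separate the groups of families by role. The points of miR398 and miR159 lie close together, whereas those of miR395, miR160 and miR162 spread over 100-fold or more and those of miR167 over 92.7-fold.

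**Figure D3:**
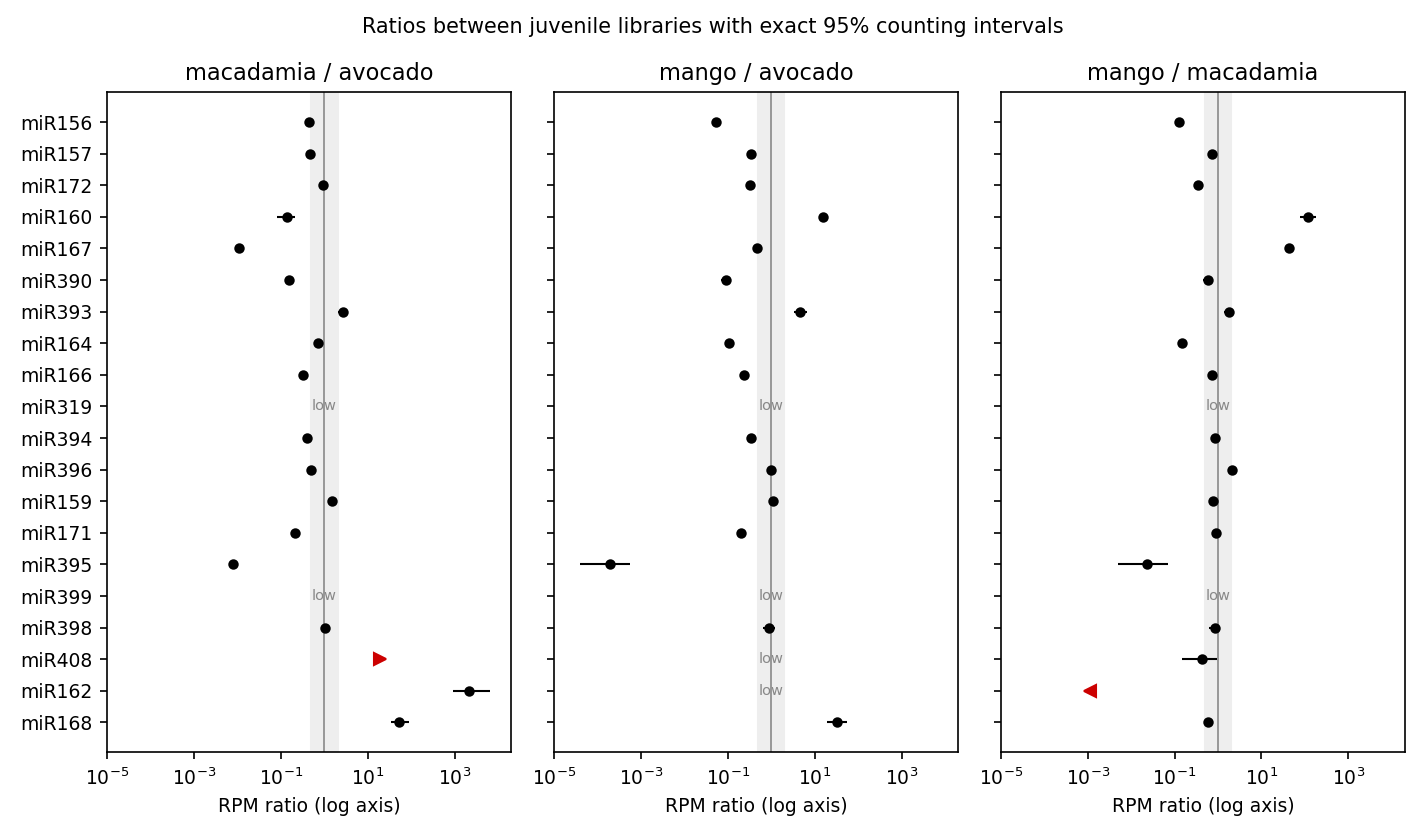
Ratio of RPM between each pair of juvenile libraries (x axis, log scale) by family, with exact 95% counting intervals. The grey band marks less than 2-fold, and "low" marks families under 10 RPM in both libraries. Triangles are ratios to a floor of 3 reads and are not limits of the counting intervals. On the deposited scale more families lie left of the band against avocado (10 and 10) than between mango and macadamia (6).

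The families of phase change were at different levels and in a different balance. miR156, which holds the SPL transcription factors down in young shoots, was at 7439 RPM in juvenile avocado, 3210.0 RPM in macadamia and 400.4 RPM in mango. It was thus lowest in mango, 18.6-fold below avocado (95% interval 16.9 to 20.4) and 8.02-fold below macadamia (7.31 to 8.81). The difference between avocado and macadamia was 2.32-fold (2.28 to 2.36), and it was under 2-fold on both other scales. miR157, a close relative with the same kind of targets, was at 7146 RPM in avocado, 3331 RPM in macadamia and 2480.1 RPM in mango. Its order was the same but its spread was smaller, with avocado 2.88-fold above mango (2.77 to 3.00), a direction that was lost with the median set to 0. miR172, which acts on AP2-like genes and usually stands opposite to miR156, was at 1432 RPM in avocado, 1304 RPM in macadamia and 461 RPM in mango. It too was lowest in mango, by 3.11-fold against avocado (2.84 to 3.40) and by 2.83-fold against macadamia (2.59 to 3.09), while avocado and macadamia were within 2-fold. The difference from avocado nearly vanished with the median set to 0.

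Ratios taken within a library do not depend on the scaling. There were 5.20 miR156 reads per miR172 read in juvenile avocado (5.06 to 5.33), 2.46 in macadamia (2.40 to 2.52) and 0.869 in mango (0.765 to 0.987). Mango was therefore the 1 seedling library with fewer reads of miR156 than of miR172. The reads of miR157 per read of miR156 were 0.961 in avocado, 1.04 in macadamia and 6.19 in mango (5.61 to 6.85). Both forms were nearly equal in avocado and macadamia, and miR157 made up most of the pair in mango. With both forms added, the ratio to miR172 was 10.2 in avocado, 5.02 in juvenile macadamia and 6.25 in mango, so mango no longer stood lowest. Of all families compared, 22.2%, 18.8% and 16.7% were 2-fold higher in macadamia over avocado, mango over avocado and mango over macadamia. Of the 3 families in this group none was 2-fold higher in any pair. Lower were 2 in macadamia over avocado, where 55.6% of all families compared were lower, 3 in mango over avocado, where 62.5% were, and 2 in mango over macadamia, where 33.3% were.

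Among families that act on auxin response, miR167 and miR160 differed most. miR167, which holds down auxin response factors of the activating kind, was at 10936 RPM in juvenile avocado, 118 RPM in macadamia and 5052 RPM in mango. Macadamia was far below both other libraries, by 92.7-fold against avocado (86.7 to 99.4) and by 42.8-fold against mango (39.9 to 46.1). Avocado was 2.16-fold above mango (2.11 to 2.22), which turned to the opposite direction with the median set to 0. miR160, which holds down repressing auxin response factors, was at 24.8 RPM in avocado, 3.33 RPM in macadamia and 387 RPM in mango on its 5p arm. This arm rested on a single rice entry, so the values hold for that listed sequence and not for the whole family. The entry was highest in mango, by 15.6-fold over avocado (12.7 to 19.4) and by 116-fold over macadamia (77.2 to 184). Avocado was 7.44-fold above macadamia (4.76 to 12.1) on this arm, but below it when the 3p arm was added.

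miR390, which starts the production of the trans-acting RNAs that act on further auxin response factors, was at 635 RPM in juvenile avocado, 98.4 RPM in macadamia and 58.7 RPM in mango. Avocado was highest, 6.45-fold above macadamia (5.94 to 7.01) and 10.8-fold above mango (8.49 to 14.0). miR393, which holds down the TIR1/AFB auxin receptors, was at 15.8 RPM in avocado, 41.7 RPM in macadamia and 74.5 RPM in mango. Its order was thus the reverse of that of miR390, with mango 4.70-fold above avocado (3.40 to 6.51). Of the 4 auxin families, 1 was higher and 3 were lower in macadamia over avocado, beside 22.2% and 55.6% of all families compared. In mango over avocado 2 were higher and 2 were lower, beside 18.8% and 62.5%. In mango over macadamia 2 were higher and none was lower, beside 16.7% and 33.3%. Their median log2 ratio was -2.63, 0.52 and 3.12 in these comparisons, beside -1.07, -1.53 and -0.45 over all families.

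Families of leaf and organ development were all abundant except miR319. miR396 was at 33294 RPM in juvenile avocado, 16114 RPM in macadamia and 33405 RPM in mango. Avocado and mango were level, with a ratio of 1.00 (0.992 to 1.01), although they were not level on either other scale. Macadamia was 2.07-fold lower than avocado, a difference that vanished with the median set to 0. miR166, which holds down the class III HD-ZIP factors of the upper leaf side, was at 6736 RPM in avocado, 2202 RPM in macadamia and 1574 RPM in mango. It was highest in avocado, by 3.06-fold over macadamia (3.00 to 3.12) and by 4.28-fold over mango (4.08 to 4.49). The first was under 2-fold on both other scales, and the second with the median set to 0.

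miR164, which acts on CUC-type NAC factors of organ boundaries, was at 4183 RPM in juvenile avocado, 3009.8 RPM in macadamia and 456 RPM in mango. As with miR156, mango stood apart, 9.18-fold below avocado (8.42 to 10.0) and 6.61-fold below macadamia (6.06 to 7.22). miR394, which acts on the F-box gene LCR, was at 2036 RPM in avocado, 819 RPM in macadamia and 705 RPM in mango. It was 2.49-fold and 2.89-fold higher in avocado than in macadamia and mango, but both differences were under 2-fold on both other scales, and that from mango shrank to nothing with the median set to 0. miR319, which acts on TCP factors of leaf shape, had no reads in avocado, 4 in macadamia and 5 in mango. Its values lay near the floor and no order was read from them. Of the 4 families of this group that were compared, 3 were lower in macadamia over avocado and 3 in mango over avocado, close to the 55.6% and 62.5% of all families. In mango over macadamia 1 was higher and 1 lower, beside 16.7% and 33.3% of all families.

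Of the remaining regulators of transcription factors, miR159 was at 28684 RPM in juvenile avocado, 41759 RPM in macadamia and 31814 RPM in mango. It was among the most even families on the deposited scale, with a ratio of 1.46 in macadamia over avocado and 1.11 in mango over avocado, but it was over 2-fold higher in macadamia than in avocado on either other scale. Against miR396 within the same library it was not even, since miR159 had 2.59 times the reads of miR396 in macadamia (2.57 to 2.61), while miR396 had 1.16 times the reads of miR159 in avocado and 1.05 times in mango. miR171, which acts on GRAS factors of the HAM type, was at 1159 RPM in avocado, 248 RPM in macadamia and 228 RPM in mango. It was 4.68-fold (4.43 to 4.94) and 5.09-fold (4.49 to 5.78) higher in avocado, and macadamia and mango did not differ beyond counting error, with an interval of the ratio of 0.955 to 1.24. The difference between avocado and mango was under 2-fold with the median set to 0.

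Among the largest differences between species was that of miR395, which acts on ATP sulfurylases and a sulphate transporter and is known in Arabidopsis to be made when sulphate is short. It was at 13884 RPM in juvenile avocado, 111 RPM in macadamia and 2.63 RPM in mango, where it had 3 reads. Avocado was 124.8-fold above macadamia (116 to 134) and 5283-fold above mango (1808 to 25617), and macadamia was 42.3-fold above mango (14.4 to 206). The values thus fell into 3 separate levels, and miR395 was the third family of avocado and among the last of mango. miR399, which acts on the phosphate regulator PHO2, had 8.87 RPM in macadamia and no reads in avocado or mango. Macadamia was at least 10.8-fold higher than avocado and at least 2.67-fold higher than mango by the exact counting intervals. However, miR399 stayed under 10 RPM in every library.

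Both copper families were low. miR398, which acts on copper superoxide dismutases, was at 48.6 RPM in juvenile avocado, 51.0 RPM in macadamia and 42.9 RPM in mango. It was the family with the smallest spread, and all 3 intervals of its ratios held 1, though it was not level in the pairs with avocado after either rescaling. miR408, which acts on plantacyanin and laccases, had no reads in avocado, 12.5 RPM in macadamia and 5.26 RPM in mango. Macadamia was at least 15.3-fold above avocado by the exact counting interval, and 2.37-fold above mango (1.05 to 6.64) with 6 reads in mango. The difference between macadamia and mango was under 2-fold with the median set to 0. Within miR398, the minor profile miR398a-3p had its highest value in macadamia and none in avocado, as miR408 did.

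The listed entries of the families that act on the small RNA pathway itself were low in avocado, and mango had no reads of miR162. miR162, which acts on Dicer-like 1, was at 1.09 RPM in juvenile avocado, 2289.8 RPM in macadamia and 0 RPM in mango. Macadamia alone held it in quantity, with 16525 reads against 5 in avocado, a 2108-fold difference (904 to 6497). By its exact counting interval, miR162 was at least 708-fold higher in macadamia than in mango. miR168, a family that acts on Argonaute 1, was at 3.91 RPM in avocado, 208 RPM in macadamia and 124 RPM in mango. These values come from its 3p entry alone. No 5p entry was listed, so the level of the 5p arm is not known here. In the 3p entry avocado was lowest, 53.2-fold below macadamia (33.6 to 90.1) and 31.8-fold below mango (19.4 to 55.3). Both families were higher in macadamia over avocado, beside 22.2% of all families compared. In mango over avocado only miR168 was compared, and it was higher, beside 18.8%. In mango over macadamia none was higher and 1, miR162, was lower, beside 16.7% and 33.3%.

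Of the 8 groups of families considered, the group acting on disease resistance genes had no member among the entries analysed here. In all, 20 of the 33 families in these groups were in the table.

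Beneath the family values, the sequence variants in use differed between species. Of 11 families at 10 RPM or more in all 3 libraries with more than 1 profile, the leading profile was the same in 8 and differed in miR167, miR171 and miR396. In miR156, miR159, miR164 and miR172 a single profile held over 98% of the reads everywhere. It was miR156a-5p with 99.9% of miR156 in juvenile avocado, 99.9% in macadamia and 99.1% in mango, and miR172a with 99.5%, 99.9% and 100% of miR172. miR159a held 99.2%, 99.5% and 99.1% of miR159, and miR164a held 98.3%, 98.9% and 99.6% of miR164.

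miR167 showed the clearest exchange of variants. The profile of rice miR167d-5p, which stood for 6 entries, was at 10919.6 RPM in juvenile avocado, 61.7 RPM in macadamia and 14.9 RPM in mango. The profile of Arabidopsis miR167a-5p was at 16.5 RPM in avocado, 56.3 RPM in macadamia and 5037 RPM in mango. The first made up 99.8% of the family in avocado, 52.3% in macadamia and 0.295% in mango, and the second made up the rest. Avocado and mango, which were within 3-fold for the family as a whole, were therefore far apart in each form, by 733-fold for miR167d-5p (458 to 1259) and by 305-fold in the opposite direction for miR167a-5p (244 to 388). Macadamia, which had little miR167, carried both forms alike, at 1.10 reads of miR167d-5p per read of miR167a-5p (0.956 to 1.26).

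In miR396 the balance of its main forms turned over. miR396a-5p was at 19678 RPM in juvenile avocado, 12487 RPM in macadamia and 7478 RPM in mango. miR396b-5p was at 13615 RPM in avocado, 3626 RPM in macadamia and 25927 RPM in mango. The b form held 40.9% of the family in avocado, 22.5% in macadamia and 77.6% in mango. There were thus 0.692 b reads per a read in avocado (0.685 to 0.699), 0.290 in macadamia (0.286 to 0.294) and 3.47 in mango (3.38 to 3.55). The level total of miR396 in avocado and mango was made of 2.63-fold less of the a form and 1.90-fold more of the b form in mango.

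miR171 was split between the profile of rice miR171b, with 627 RPM in juvenile avocado, 69.0 RPM in macadamia and 159 RPM in mango, and that of Arabidopsis miR171b-3p. The latter was at 531 RPM in avocado, 179 RPM in macadamia and 68.3 RPM in mango. The rice form led with 54.2% in avocado and 70.0% in mango, and the Arabidopsis form led with 72.1% in macadamia. Macadamia and mango, level in the family total, thus differed by 2.31-fold in 1 form (1.94 to 2.74) and by 2.62-fold in the other (2.08 to 3.33), in opposite directions.

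Other families kept their leading profile but differed in the minor ones. Rice miR166g-3p was at 2246 RPM in juvenile avocado, 532 RPM in macadamia and 2.63 RPM in mango, or 33.3%, 24.1% and 0.167% of miR166. Mango had 3 reads of it, and avocado was 854-fold higher (292 to 4144). Without the 5p arm, which the family value leaves out, mango carried miR166 almost as a single profile. miR157d was at 414 RPM in avocado, 115 RPM in macadamia and 520 RPM in mango, or 5.80%, 3.47% and 20.9% of miR157. It took the largest share in mango, where miR157a-5p was the lowest. The leading profile of miR393, rice miR393a, held 68.5% in avocado, 58.5% in macadamia and 60.0% in mango, and the intervals of these shares overlapped.

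**Figure D4:**
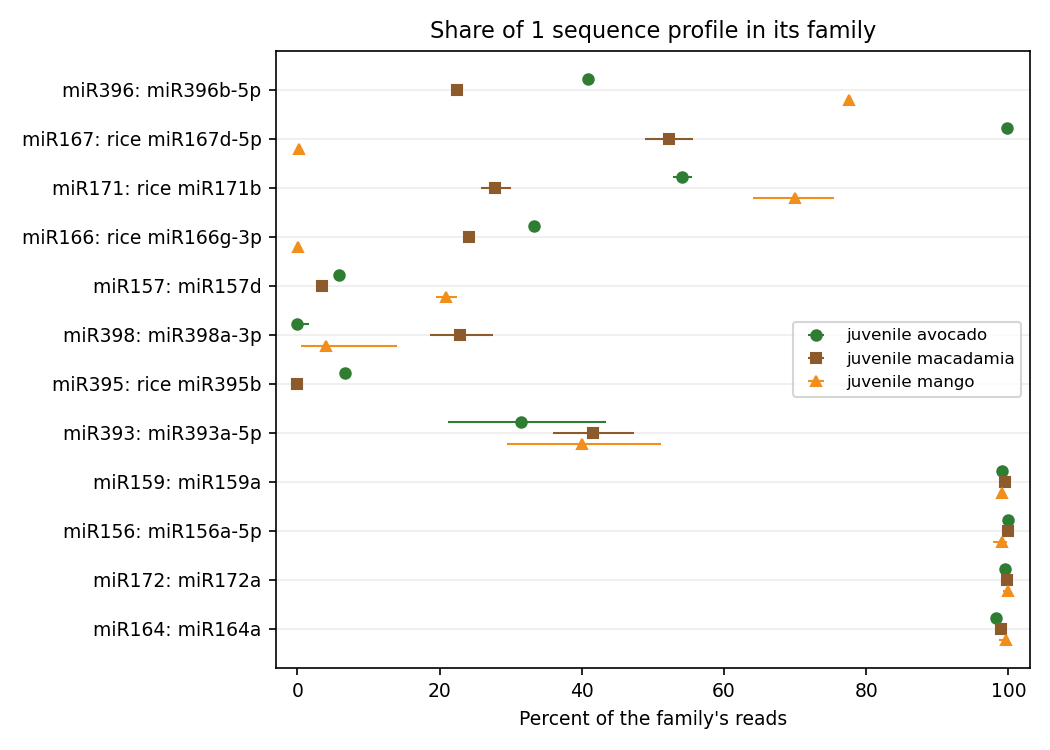
Share of 1 sequence profile in the reads of its family (x axis, percent) in juvenile avocado (circles), macadamia (squares) and mango (triangles), with exact 95% intervals; miR395 of mango, with 3 reads in all, is not drawn. miR167d-5p runs from 99.8% in avocado to 0.295% in mango and miR396b-5p from 22.5% in macadamia to 77.6% in mango, while the lower 4 families stay above 98%.

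Reads were found for 50 of the 53 profiles in juvenile macadamia, 40 in avocado and 36 in mango, and 32 profiles had reads in all 3 libraries. Thinned to the depth of the mango library, 44.1 profiles would be expected in macadamia and 38.9 in avocado, both still above the 36 of mango. There were 9 profiles with reads in macadamia alone, 2 in avocado alone and 1 in mango alone. These numbers were not thinned, and macadamia was the deepest library. Its own profiles ran from 1 read for rice miR166k-3p to 303 for miR160a-3p, and the mango one had 3 reads. Profiles of a few reads in macadamia could be missed at the depth of mango.

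In 8 profiles a library had no reads while another had 10 RPM or more, and mango lacked 6 of them, avocado 3 and macadamia 2. The largest was miR162b-3p, which mango lacked. Next was the profile of rice miR395b, which stood for 8 entries, with 940 RPM in juvenile avocado and no reads in macadamia or mango. By the exact counting intervals, avocado was at least 1839-fold above macadamia and at least 291-fold above mango in this form. It held 6.77% of the miR395 of avocado, and in macadamia all 803 reads of miR395 fell in the profile of Arabidopsis miR395a.

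miR159 had 2 such minor profiles. Rice miR159d was at 126 RPM in juvenile avocado with no reads in macadamia or mango. Avocado was at least 246-fold and at least 38.8-fold higher by the exact counting intervals. Arabidopsis miR159c was at 64.5 RPM in avocado, had 1 read in macadamia and none in mango. In this form avocado was at least 19.8-fold higher than mango by the exact counting interval. Another minor member, miR159b-3p, ran the other way, with 15.0 RPM in avocado, 168 RPM in macadamia and 217 RPM in mango. Avocado was thus 11.2-fold below macadamia (8.79 to 14.5) and 14.5-fold below mango (11.1 to 19.2) in this form, although miR159 as a whole was within 2-fold.

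The remaining ones were low. miR398a-3p had no reads in juvenile avocado, 11.6 RPM in macadamia and 1.75 RPM in mango. Macadamia was at least 14.2-fold above avocado by the exact counting interval. miR164c-5p was at 11.5 RPM in avocado and had no reads in mango, and avocado was at least 3.44-fold higher by the exact counting interval. miR408-3p, which is the whole of miR408 here, and miR160a-3p were the other 2.

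**Figure D5:**
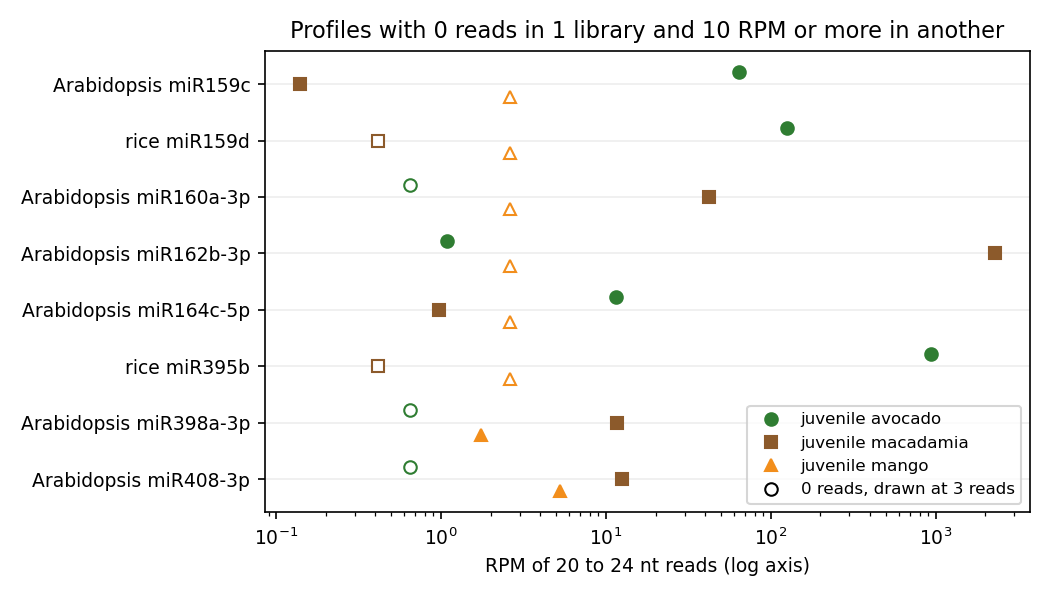
Level (x axis, RPM, log scale) of the 8 profiles with no reads in 1 or more juvenile libraries and 10 RPM or more in another; open symbols stand for 0 reads and are drawn at 3 reads, which is 2.63 RPM in mango. miR162b-3p in macadamia and rice miR395b in avocado lie farthest above the floors of the libraries that lack them.

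The arm that is usually discarded also differed. The 3p arm of miR160 was at 42.0 RPM in juvenile macadamia and had no reads in avocado or mango, and in macadamia it made up 92.7% of the miR160 reads (89.3 to 95.2). Each arm rested on a single entry, a rice one for 5p and an Arabidopsis one for 3p, so the share compares these listed sequences and not the whole arms. Macadamia, which had the least of the listed 5p entry, was the 1 library with reads of the listed 3p entry. The 3p entry of miR390, an Arabidopsis one, was likewise found in macadamia alone, at 9.70 RPM. The arm values that follow also hold for listed entries only. For the 3p arms of miR156 and miR396 these were rice entries alone. The 3p arm of miR156 was at 232 RPM in avocado, 128 RPM in macadamia and 2.63 RPM in mango, or 3.02%, 3.84% and 0.652% of the reads of both arms. The 5p arm of miR166 was at 617 RPM, 323 RPM and 364 RPM in the same order, and its share of both arms was 8.39% in avocado, 12.8% in juvenile macadamia and 18.8% in mango. The 3p arm of miR396 stayed under 0.25% of both arms in each library.

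How alike the libraries looked depended on whether variants were told apart. The composition shared by a pair, the sum over families of the smaller of the pair's shares, was 64.2% for macadamia and avocado, 67.5% for mango and avocado and 71.4% for mango and macadamia. With profiles in place of families it was 64.0%, 53.5% and 63.6%. Mango and avocado thus lost 14.0 percentage points, of which miR396 gave 7.05 and miR167 gave 6.50, and mango and macadamia lost 7.78, of which miR396 gave 6.99. Macadamia and avocado lost 0.253. In this pair miR396 lost 0, as macadamia had the smaller share of both its forms. Across the 20 families, Spearman's rho of the RPM was 0.72, 0.75 and 0.67 for these pairs, given as a description since families of 1 library share its depth. Across the 53 profiles of both arms it was 0.68, 0.68 and 0.76. Mango and macadamia thus had the lowest rho over families and the highest over profiles, and rho did not follow the order of the shared composition.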

How the data were processed

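Small RNA libraries were made with the NEXTflex kit from total RNA of leaves. The authors trimmed reads with Trim Galore, removed ribosomal RNA with BBduk, aligned the rest with SCRAM to Arabidopsis and rice miRNAs of miRBase, and deposited 1 table in RPM, reads per 1000000 reads of 20 to 24 nt; versions of these tools and the mismatches allowed were not found in the labels or the methods. Identical values of several entries can be 1 sequence listed under several names, so they were counted once. No column of the table was left without a sample. Depths and whole reads were recovered from the RPM steps, and all values were whole within the rounding to 3 decimals. Ratios and shares carry exact Clopper-Pearson 95% intervals, which treat PCR copies as independent molecules. No count test was run, because there was 1 library per species and the recovered reads could not be checked against a known depth. Pairwise comparisons used a pseudocount of 1 RPM, a minimum of 10 RPM and a 2-fold threshold. Named were all families of the role groups, the 3 most abundant families of each library, the 5 largest differences each way, families with 3 reads or fewer against 10 RPM or more, and profiles that led a family, held 10% of it, or were at 0 against 10 RPM. Families, groups and rules were chosen with earlier results of these data known. Alternatives covered arms, collapsing of entries, pseudocount, scaling, minimum and threshold. Calculations used Python 3.11.15, numpy 2.4.6, pandas 2.3.3 and scipy 1.17.1, with figures by matplotlib 3.10.9, and were tested on simulated data.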

Additional observations from a re-analysis of the deposited data

How the results depend on the processing

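No paired analysis was possible because each species had 1 juvenile library and the labels give no replicate numbers, and no library could be left out for the same reason. Families 2-fold higher in macadamia than in avocado were 2 with a minimum of 50 RPM, and those lower were 5 with the same listed total, 5 with the median set to 0 and 5 at a 4-fold threshold. Families higher in mango than in avocado were 6 with the median set to 0 and 5 with no minimum, and those lower were 4 with the median set to 0 and 6 at a 4-fold threshold. The counts for mango over macadamia stayed within 1.5 times under every alternative run. Turned in direction on the log2 scale were miR160 in macadamia over avocado (0.85 with both arms), miR396 in the same pair (0.027 with the median set to 0), miR157 (0.00075) and miR167 (0.41) in mango over avocado with the median set to 0, and miR167 in mango over macadamia (-1.98 with the profile of most reads alone, rice miR167d-5p). With every entry counted, copies included, the listed share of reads was 46.8% in avocado, 20.0% in juvenile macadamia and 16.3% in mango, the leading family took 25.4%, 25.6% and 45.7% of it, and the leading profile 6.08%, 20.8% and 19.4%; the leading family was then miR156 in avocado and macadamia, whose main profile stands for 16 entries, and miR396 in mango. With the single top profile per family, the leading family took 23.99%, 55.0% and 40.6% and was miR159 in all 3, in place of miR396 in avocado and mango. Profiles missing from a library were 4 with 50 RPM asked of the other. Of the remaining values, 110 counts and shares stayed within 1.5 times or within counting error of their main value. Of the log2 ratios, 416 moved by less than counting error and 116 by more in the same direction or without a 2-fold call. Where 1 library of a pair had no reads, counting error was unbounded, so unless a 2-fold call turned, any shift fell in the 416. miR408 in macadamia over avocado went from 3.75 to 6.97 with a pseudocount of 0.1 RPM and was counted there. The thinning of profiles to the mango depth was chosen after seeing the data. Depth limits mango most, where a family with fewer than 3 reads, 2.63 RPM, could be missed.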

Other observations

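Avocado drew more of its listed reads from profiles known to the table only by rice names. Such profiles held 13.5% of the listed reads in juvenile avocado, 1.74% in macadamia and 1.42% in mango. Profiles with Arabidopsis names alone held 42.0%, 60.6% and 44.5%, and profiles named in both references held 44.5%, 37.7% and 54.1%. Without rice miR167d-5p, the rice share was 4.70% in avocado, 1.66% in juvenile macadamia and 1.40% in mango. The order was kept, and most of the rice share of avocado was this 1 form of miR167.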
